A study of Mus musculus with 12 samples.

Results

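The core histone genes of the replication-dependent clusters were examined in basal epithelial cells of the mouse palate. Members were chosen by gene symbol, as the genes named Hist followed by a cluster number and h2a, h2b, h3 or h4, which gave 62 of the 23420 genes in the deposited table. They comprised 18 H2A genes, 19 H2B genes including the pseudogene Hist3h2bb-ps, 12 H3 genes and 13 H4 genes. By position, 22 lay in the first sub-cluster on chromosome 13, 26 in the second sub-cluster on the same chromosome, 10 on chromosome 3 and 4 elsewhere. The 6 linker H1 genes were not members.

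All 6 mice were FVB, carried K5-tTA (+/-) and tetO-H2B-GFP (+/-), and were 49 days old except mouse B7F, at 71 days. The keratin 5 promoter drives a doxycycline-repressible transactivator in basal keratinocytes, and the transactivator drives an H2B joined to GFP, so every cell in both groups carried the same reporter. After a 14-day chase, live CD49f-positive cells of each mouse were sorted into a GFP-HI fraction, labelled as infrequently dividing, and a GFP-LO fraction, labelled as frequently dividing. Each fraction of 200 to 1000 cells gave 1 total RNA library, 12 in all, and mouse codes paired the libraries. Counts were scaled to CPM, counts set against a common library total, with trimmed-mean (TMM) factors, and differences are GFP-HI over GFP-LO on the log2 scale.

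Core histones H2A, H2B, H3 and H4 form the protein octamer around which DNA is wrapped. Their clustered genes are transcribed mainly in S phase, when newly copied DNA needs new histones. Most of their mRNAs lack a poly(A) tail and end in a short stem-loop that is bound by the protein SLBP. That end governs their processing, export, translation and rapid decay when DNA synthesis stops.

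The shared 3′ element is shown first because it links the members by a feature that the choice by symbol did not use. A stem-loop pattern was searched on the sense strand of GENCODE M21 transcripts (GRCm38), in the annotated bases after the stop codon. Its fixed letters, in order, were GG, CTTTT, AG and CC, with any 2 bases after GG, any 1 base before AG, and any 2 bases after AG. It was present in 40 of the 44 members with at least 50 annotated bases there (90.91%), starting 22 to 59 bases after the stop codon (median 32.5). Among all 20659 coding genes with that many bases, 47 (0.2275%) held it in the first 150 bases, and outside the histone clusters 3 of 20609 did. The 6 forms found are written with the paired stem in capitals and the loop in lower case.
Form in 23 genes of H2A, H2B and H3: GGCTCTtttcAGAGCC
Form in 7 H4 genes, Hist1h4d and Hist4h4 among them: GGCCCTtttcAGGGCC
Form in 5 H2B and H3 genes, Hist1h3c and Hist1h2bb among them: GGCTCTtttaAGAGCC
Form in 2 H4 genes, Hist1h4i and Hist2h4: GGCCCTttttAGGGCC
Form in 2 H4 genes, Hist1h4j and Hist1h4b: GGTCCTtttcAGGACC
Form in Hist2h2ac: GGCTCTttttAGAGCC
The stems of all 11 H4 genes with a match differed from the stem shared by the matched H2A, H2B and H3 genes.

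The start regions are shown because the members also share short promoter motifs and because many H2A and H2B genes are transcribed away from each other from 1 region. RefSeq promoter windows (GRCm38.p6, 300 bases each, 250 before to 50 after the annotated start) matched 52 members. Capitals mark CCAAT on either strand and TATAAA on the sense strand. The windows of Hist1h2ak and Hist1h2bn, an H2A and H2B pair, overlap over most of their length, so only the former is printed. TATAAA in the Hist1h2ak window starts at base 272, which lies after the annotated start. Hist1h4d and Hist1h3c had the highest levels per kb of their classes.
Hist1h2ak, minus strand, chr13:21753863-21754162: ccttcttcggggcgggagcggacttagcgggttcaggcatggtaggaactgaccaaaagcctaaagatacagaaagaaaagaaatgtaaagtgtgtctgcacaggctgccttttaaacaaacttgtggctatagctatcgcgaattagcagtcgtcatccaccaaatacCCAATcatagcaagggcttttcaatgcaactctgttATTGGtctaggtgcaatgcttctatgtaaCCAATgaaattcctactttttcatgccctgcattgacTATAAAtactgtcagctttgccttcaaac
Hist1h4d, plus strand, chr13:23581318-23581617: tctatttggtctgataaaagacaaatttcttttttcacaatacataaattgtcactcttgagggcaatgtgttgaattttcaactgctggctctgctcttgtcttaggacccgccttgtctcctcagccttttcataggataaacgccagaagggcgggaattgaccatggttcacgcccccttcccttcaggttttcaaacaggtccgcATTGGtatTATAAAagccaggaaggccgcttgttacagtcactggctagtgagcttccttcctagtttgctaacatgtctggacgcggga
Hist1h3c, minus strand, chr13:23745472-23745771: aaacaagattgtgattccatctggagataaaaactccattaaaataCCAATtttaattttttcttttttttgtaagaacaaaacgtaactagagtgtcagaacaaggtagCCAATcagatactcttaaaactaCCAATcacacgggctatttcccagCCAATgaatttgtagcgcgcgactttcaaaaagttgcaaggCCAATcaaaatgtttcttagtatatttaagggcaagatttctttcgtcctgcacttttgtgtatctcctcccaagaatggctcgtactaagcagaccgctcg
CCAAT, the motif bound by the factor NF-Y, was present on either strand in all 17 H2A, all 14 H2B and all 10 H3 windows, but in 3 of 11 H4 windows. It was present in 37.4% of all 32851 promoters. TATAAA was on the sense strand in 25 of 52 member windows (48.1%) and in 8.32% of all promoters. The octamer ATTTGCAT, searched on both strands, was in 7 of 17 H2A and 6 of 14 H2B windows, in 0 of 10 H3 and 0 of 11 H4 windows, and in 1.74% of all promoters. Each motif was searched on its own, so matches of different motifs may overlap, and a match describes letters only. Hist1h2ao and Hist1h2ap were matched to the same window, and windows of divergent H2A and H2B pairs overlap. The same letters may therefore be counted for both genes.

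Core histone transcripts were higher in GFP-HI than in GFP-LO in each of the 6 mice. The summed level in GFP-HI was 14230, 14110, 7530, 6958, 5256 and 4493 CPM in B1M, B3M, B4M, B5M, B7F and B7M. In GFP-LO of the same mice it was 8550, 8902, 4210, 4769, 3285 and 3275 CPM. Within mice the difference was therefore positive throughout, but the groups overlapped, since both libraries of B1M and B3M lay above every other library. The log2 difference was 0.73, 0.66, 0.84, 0.54, 0.68 and 0.46 in the same order of mice, a mean of 0.65 ± 0.14 (SD, n = 6), or 1.57-fold. The means were 8762 ± 4329 CPM over GFP-HI libraries against 5499 ± 2566 CPM over GFP-LO libraries (SD, n = 6 each). These members were grouped on this contrast after its results were known, so their differences are a description and no test of the family is given. In pooled cells, a larger share of cells that make histone mRNA and more of it per cell cannot be told apart.

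Library depth ranged from 6678444 to 10547665 counts, of which Rn45s, the 45S pre-ribosomal RNA gene, held 31.5% to 59.8%. Detected genes numbered 12312 and 13101 in the GFP-HI and GFP-LO libraries of B1M, 12810 and 14872 in those of B3M, and 15474 to 19023 in the other libraries. B1M and B3M were thus the mice with the fewest detected genes and the highest histone sums. Their part in the levels was not tested, and without both mice the median log2 difference over tested members was 0.62, beside 0.64 with all mice. A count of 0 allowed up to 3 counts, or 0.257 to 0.433 CPM, which covers counting error only. Basal keratinocyte markers were high, with Krt5 at 4339 to 6831 CPM and Krt14 at 6378 to 13670 CPM, and 0 of 7 were called by edgeR or DESeq2. At an unadjusted p under 0.05, 1 of the 7 was higher and 1 lower. Their summed level was 14330 to 22990 CPM over the GFP-HI libraries and 16820 to 23760 CPM over the GFP-LO libraries.

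Of the 62 members, 52 passed the low-count filter. A gene was called at an adjusted p under 0.05 by the edgeR quasi-likelihood test with mouse as a block, adjusted by Benjamini-Hochberg over all 11719 tested genes. By that rule 40 of the 52 were higher in GFP-HI, beside 0.469% of all tested genes (55 of 11719), a count that includes the members. None of the 52 was called lower, beside 0.0597% of tested genes (7 of 11719), and 0 were lower at an unadjusted p under 0.05 or by DESeq2. Log2 fold changes were positive for 51 of 52, with a median of 0.64, and the median of all tested genes was -0.02. Among 11650 tested genes outside the histone families, 13 were called higher and 7 lower. With DESeq2 and mouse in its design, 47 members were called higher, beside 1.44% of the 8311 genes with an adjusted p. The edgeR count depended on the mice and on their pairing: 21 members were called without B3M, 23 without B4M and 0 with no replicate block. Because the contrast grouped the members, nothing is read from these counts.

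In 44 of the 52, GFP-HI was above GFP-LO in all 6 mice, beside 3.3% of all tested genes. In 0 of the 52 did every GFP-HI library lie above every GFP-LO library, beside 0.0683% of all tested genes. The 8 members without the same direction in 6 mice were Hist1h4k, Hist1h2an, Hist1h2ah, Hist1h4i and Hist2h2ac, higher in 5 mice, Hist2h2ab and Hist2h2be, higher in 4, and Hist1h2ba, higher in 3.

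**Figure D1:**
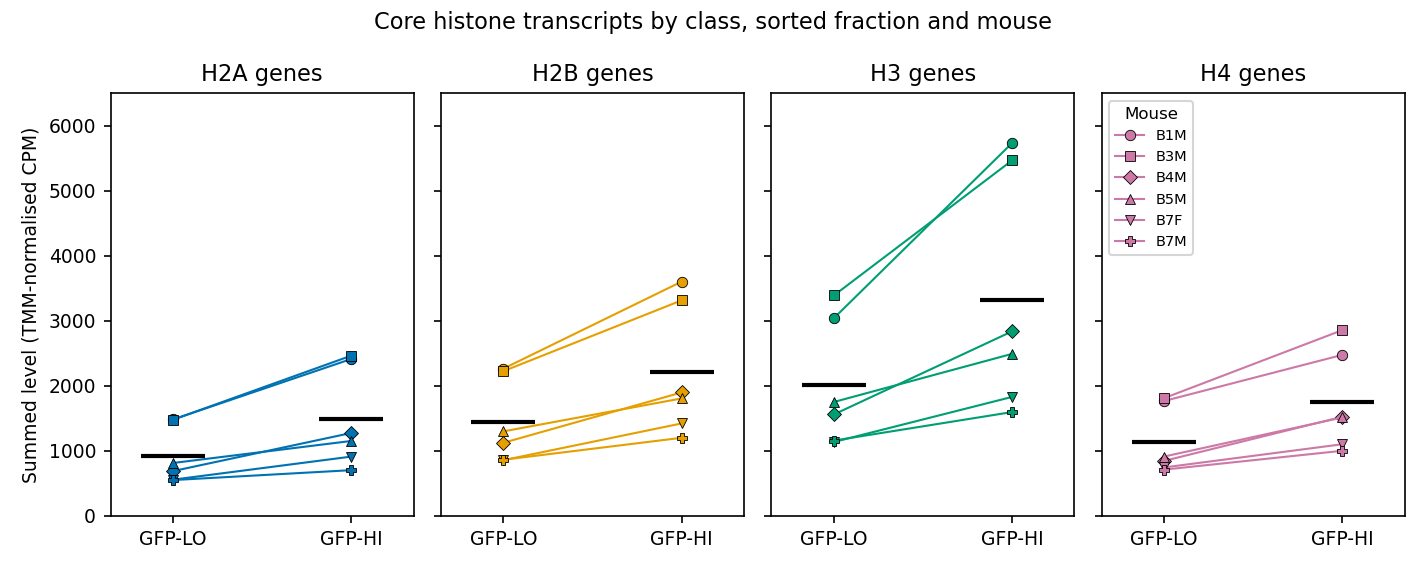
Summed level of each core histone class (vertical axis, TMM-normalised CPM) in the GFP-LO and GFP-HI libraries, with a line joining the 2 libraries of a mouse and a black bar at each mean of 6 libraries. Every line rises from GFP-LO to GFP-HI in all 4 panels, and B1M and B3M lie above the other mice in both fractions.

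H2A pairs with H2B to form the dimers on the outer faces of the nucleosome. The H2A genes summed to 2412, 2463, 1273, 1150, 909 and 701 CPM among the GFP-HI libraries, against 1481, 1477, 686, 811, 554 and 548 CPM among the GFP-LO libraries, in the order of mice above. The difference was 0.65 ± 0.19 on the log2 scale (SD, n = 6), from 0.35 in B7M to 0.89 in B4M. Of 13 tested H2A genes, 8 were called higher, beside 0.469% of all tested genes, and the median log2 fold change was 0.67.

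Hist1h2ab (chr13:23751088-23751593, plus strand, GRCm38) was the H2A gene with the highest level per length, 423 CPM per kb of exon. Its level was 488, 415, 174, 211, 164 and 126 CPM in GFP-HI. In GFP-LO it was 301, 277, 114, 119, 100 and 81.3 CPM. Hist1h2ab was higher in GFP-HI in 6 of 6 mice, by 0.58 to 0.83 on the log2 scale, although the groups overlapped across mice. Its fitted log2 fold change was 0.68 ± 0.07 (SE), and it was called.

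The tested H2A genes that were not called were Hist3h2a (log2 fold change 0.35), Hist1h2an (0.55), Hist1h2ah (0.54), Hist2h2ab (-0.13) and Hist2h2ac (0.43). Hist3h2a, on chromosome 11, was among the smallest differences in the family. Its level was 59.9, 59.2, 38.9, 39.5, 38.6 and 40.8 CPM among the GFP-HI libraries, against 54.4, 52.5, 25.2, 35.5, 29.4 and 25.5 CPM among the GFP-LO libraries. It was higher in GFP-HI in all 6 mice, but by 0.14 to 0.17 in B1M, B3M and B5M and by 0.39 to 0.68 in the other mice.

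Hist2h2ab (chr3:96219916-96220308) was the only tested member with a negative estimate, -0.13 ± 0.39 (SE). Its level was 2.94, 14.7, 3.8, 5.79, 9.33 and 2.69 CPM among the GFP-HI libraries, against 9.4, 11.1, 3.6, 4.18, 4.92 and 5.9 CPM among the GFP-LO libraries. GFP-HI was lower in B1M and B7M and higher in the other 4 mice, and the estimate turned positive without B1M (0.18) or without B7M (0.08). Its neighbour Hist2h2ac, a divergent partner of Hist2h2be, was at 68.5 ± 34.6 CPM among the GFP-HI libraries and 51.99 ± 28.5 CPM among the GFP-LO libraries (SD, n = 6 each).

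H2B is the class to which the GFP reporter belongs, as an H2B fusion. The H2B genes summed to 3603, 3315, 1897, 1805, 1420 and 1199 CPM among the GFP-HI libraries, against 2264, 2225, 1122, 1298, 854 and 861 CPM among the GFP-LO libraries. Their difference was 0.61 ± 0.12 (log2, SD, n = 6), the smallest class mean, beside 0.65 in H2A, 0.69 in H3 and 0.63 in H4. The within-mouse gap of H2B minus H3 was -0.07 ± 0.11 and was negative in 4 of 6 mice, and that of H2B minus H4 was -0.02 ± 0.17. Both gaps were smaller than their spread over mice. Of 15 tested H2B genes, 11 were called higher, beside 0.469% of all tested genes, with a median log2 fold change of 0.60.

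Hist2h2bb (chr3:96269700-96270192, plus strand) had the highest level per length of the H2B genes and of the chromosome 3 sub-cluster, 607 CPM per kb. It stood at 453, 513, 333, 329, 263 and 254 CPM among the GFP-HI libraries, against 380, 334, 181, 221, 164 and 166 CPM among the GFP-LO libraries. It was higher in GFP-HI in all 6 mice, least in B1M (0.26) and most in B4M (0.88), with a log2 fold change of 0.60 ± 0.08 (SE) and a call.

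Hist1h2bb (chr13:23746734-23747201) and Hist1h2bp were the H2B genes with the largest fold changes. Hist1h2bb stood at 634, 458, 245, 295, 220 and 165 CPM among the GFP-HI libraries, against 293, 302, 139, 168, 126 and 115 CPM among the GFP-LO libraries. The rise was called, at 0.78 ± 0.08 (log2, SE), and B1M showed the widest gap, 1.12. Hist1h2bp was much less abundant, at 42.6, 45.6, 44.7, 22.8, 19.6 and 14.6 CPM among the GFP-HI libraries, against 21.4, 22.4, 16.6, 16.6, 9.72 and 13.6 CPM among the GFP-LO libraries. Its estimate was the highest of all members, 0.84 ± 0.18 (SE), but it was not called. The gap ran from 0.10 in B7M to 1.43 in B4M, and the gene was called by DESeq2, with no low-count filter, without B1M and without B7M.

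Hist1h2bc was not called at 0.43 ± 0.09 (log2, SE), although it was higher in GFP-HI in 6 of 6 mice. Its level was 186, 220, 140, 115, 106 and 99.3 CPM among the GFP-HI libraries, against 173, 148, 88.2, 99.5, 77.6 and 66.7 CPM among the GFP-LO libraries. The gap was 0.10 in B1M and 0.21 in B5M, and 0.45 to 0.66 in the other mice, and the gene was called by DESeq2, with no low-count filter and without B1M. The other tested H2B genes without a call were Hist1h2ba (0.42), known as a testis H2B gene and measured at 12.4 CPM per kb, and Hist2h2be (0.12), at 1.24 CPM per kb.

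H3 and H4 form the tetramer at the centre of the nucleosome. Summed over tested members, H3 was the most abundant class per length. It stood at 6502 ± 3652 CPM per kb over GFP-HI libraries and 3885 ± 1914 over GFP-LO libraries (SD, n = 6 each). Per length in GFP-HI, H2B stood at 4545 ± 2104, H4 at 4455 ± 1929 and H2A at 3055 ± 1594 CPM per kb. The ranges over libraries overlapped, from 1129 to 5046 CPM per kb for H2A to 2182 to 11410 CPM per kb for H3. These sums leave out untested H2A and H2B genes whose models overlap another, while every H3 gene was tested. They also depend on deposited lengths, which run up to 2879 bases, so the order of classes is tied to the annotation. The H3 genes summed to 5736, 5469, 2837, 2491, 1828 and 1595 CPM among the GFP-HI libraries, against 3040, 3390, 1558, 1750, 1134 and 1156 CPM among the GFP-LO libraries. Their difference was 0.69 ± 0.18 (log2, SD, n = 6). Of the 12 H3 genes, 11 were called higher, all but Hist1h3g (0.48), beside 0.469% of all tested genes.

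Hist1h3c (chr13:23745042-23745521, minus strand) held the largest part of all core histone counts, 5.49% on average and 4.10% to 7.26% over libraries. Its level was 1033, 957, 412, 353, 275 and 184 CPM in GFP-HI. In GFP-LO it was 499, 560, 223, 259, 143 and 155 CPM. B1M and B3M were far above the other mice in both fractions, and the gap within mice ran from 0.25 in B7M to 1.05 in B1M. The fitted log2 fold change was 0.73 ± 0.10 (SE), and the gene was called.

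Hist1h3a (chr13:23761853-23762386) had the largest fold change of the called members, 0.81 ± 0.09 (log2, SE). It stood at 458, 444, 197, 197, 111 and 121 CPM among the GFP-HI libraries, against 203, 229, 107, 118, 78.7 and 82.8 CPM among the GFP-LO libraries. GFP-HI was higher in all 6 mice, by 0.50 to 1.18. Hist1h3i (chr13:21782915-21783397) was the most abundant gene per length of the first chromosome 13 sub-cluster, 582 CPM per kb. It stood at 662, 547, 313, 284, 174 and 158 CPM among the GFP-HI libraries, against 326, 322, 165, 189, 113 and 120 CPM among the GFP-LO libraries, and was called at 0.72 ± 0.09 (SE). The same 2 mice, B1M and B3M, were highest for both genes.

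The H4 genes summed to 2476, 2857, 1523, 1512, 1100 and 999 CPM among the GFP-HI libraries, against 1766, 1810, 844, 911, 743 and 709 CPM among the GFP-LO libraries. Their difference was 0.63 ± 0.14 (log2, SD, n = 6), and 10 of 12 tested genes were called higher, beside 0.469% of all tested genes. Hist1h4k (0.57) and Hist1h4i (0.56) were not called. B1M had the smallest H4 gap, 0.49, and the largest H3 gap, 0.92, while B5M had a larger gap for H4 (0.73) than for H3 (0.51). The within-mouse gap of H3 minus H4 was 0.06 ± 0.21 (SD, n = 6), smaller than its spread.

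Hist1h4d (chr13:23581602-23581913, plus strand) was the most abundant core histone gene per length, 1030 CPM per kb over all libraries. Its deposited model of 312 bases is the coding sequence alone. The level was 572, 674, 314, 333, 235 and 226 CPM among the GFP-HI libraries, against 369, 398, 185, 210, 182 and 159 CPM among the GFP-LO libraries. GFP-HI was higher in every mouse, by 0.37 in B7F to 0.76 in B3M, with a log2 fold change of 0.62 ± 0.07 (SE) and a call. Hist4h4, on chromosome 6, was the most abundant gene per length outside the 3 clusters, at 43.6 CPM per kb over a model of 2879 bases. It stood at 191, 229, 129, 131, 104 and 87.1 CPM among the GFP-HI libraries, against 134, 185, 82, 95.9, 67 and 71.6 CPM among the GFP-LO libraries. It was called at 0.47 ± 0.08 (SE), and the call was lost when B3M, B4M, B5M or B7F was left out.

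**Figure D2:**
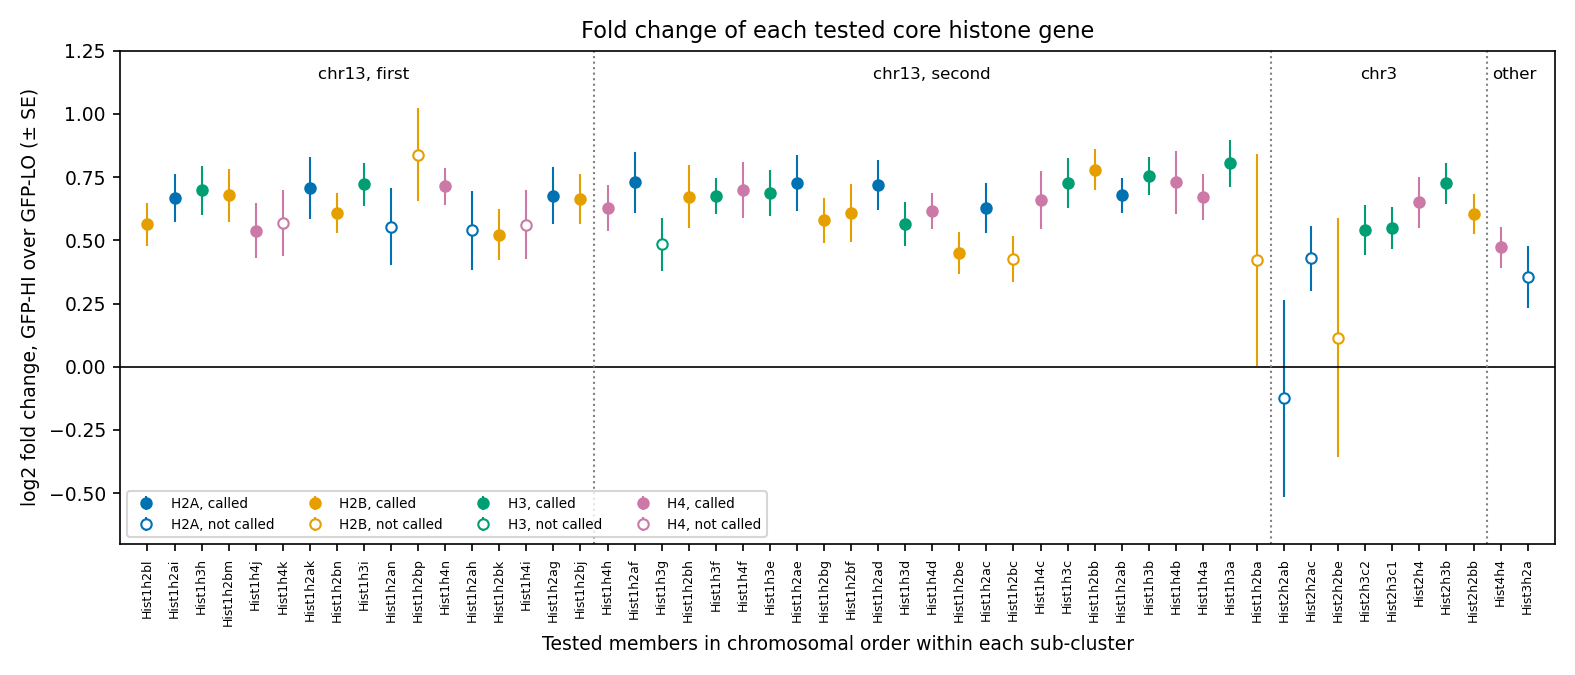
Log2 fold change (GFP-HI over GFP-LO, vertical axis) with its standard error for the 52 tested members, in chromosomal order within each sub-cluster and coloured by class, with filled points for called genes. Points lie above 0 for 51 members, and tested genes run from 0.52 to 0.84 in the first chromosome 13 sub-cluster and from 0.42 to 0.81 in the second.

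By position, the second sub-cluster on chromosome 13 held most core histone counts, 60.6% ± 1.99 among GFP-HI libraries against 59.9% ± 1.64 among GFP-LO libraries (SD, n = 6 each). Untested members whose models overlap another gene lie in the first sub-cluster and on chromosome 3. The shares of those loci may therefore be too low. The first sub-cluster held 25.3% ± 0.64 and 25.2% ± 1.19, chromosome 3 held 11.8% ± 1.88 and 12.2% ± 1.03, and the other loci held 2.37% ± 0.42 and 2.70% ± 0.29. The division among loci was thus within 1 percentage point between fractions. By class it was also close, with 37.1% ± 2.15 and 36.2% ± 1.31 for H3, 25.6% ± 1.26 and 26.3% ± 0.75 for H2B, 20.5% ± 1.70 and 20.7% ± 1.24 for H4, and 16.8% ± 0.67 and 16.8% ± 0.35 for H2A.

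The first sub-cluster differed between fractions by 0.66 ± 0.17 and the second by 0.67 ± 0.13 (log2, SD, n = 6). The first minus second gap was -0.01 ± 0.08, and it was positive in 3 mice and negative in 3. Within a class the same gap was -0.04 ± 0.14 in H2A, 0.01 ± 0.09 in H2B, 0.02 ± 0.11 in H3 and -0.01 ± 0.13 in H4, each smaller than its spread. Chromosome 3 differed by 0.59 ± 0.15, and the second chromosome 13 sub-cluster exceeded it by 0.07 ± 0.15, in 4 of 6 mice. The other loci differed by 0.45 ± 0.14, with 2 of their 4 genes tested. Calls were made for 12 of 17 tested genes in the first sub-cluster, 22 of 25 in the second, 5 of 8 on chromosome 3 and 1 of 2 elsewhere. Over all tested genes 0.469% were called higher. As the contrast grouped the members, nothing is read from the counts of calls by locus or by class.

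Divergent H2A and H2B genes could be compared within a shared start region. There were 11 such pairs with 173 to 335 bases between the annotated models, and in 9 of them both genes were tested. Hist1h2ak and Hist1h2bn, whose shared region is printed above, were 296 bases apart. Hist1h2ak stood at 361, 225, 136, 115, 82.1 and 83 CPM among the GFP-HI libraries, against 148, 164, 69, 90.9, 46.5 and 64.7 CPM among the GFP-LO libraries. Hist1h2bn stood at 390, 351, 138, 146, 121 and 96.4 CPM among the GFP-HI libraries, against 219, 217, 101.1, 108, 71.8 and 68.7 CPM among the GFP-LO libraries. Both genes were called, at 0.71 ± 0.12 and 0.61 ± 0.08 (log2, SE), and both were highest in the GFP-HI library of B1M.

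Over the 9 pairs, the H2B gene had the higher level per kb in 6. The log2 fold change was larger for the H2A gene in 8, with a median H2A minus H2B difference of 0.10 (-0.29 to 0.31). The exception was Hist1h2an (0.55) beside Hist1h2bp (0.84). The difference was 0.01 for Hist1h2ag and Hist1h2bj and 0.02 for Hist1h2ah and Hist1h2bk. The value of 0.31 was for Hist2h2ac and Hist2h2be. Hist2h2be had an SE of 0.47 and at most 53 counts. The widest gap in levels was on chromosome 3, where Hist2h2ac stood at 154 CPM per kb and Hist2h2be at 1.24 CPM per kb. In the Hist1h2ac and Hist1h2bc pair the levels were 39.0 and 174 CPM per kb, and the Hist1h2ac model runs over 2493 bases. The pairs share their libraries and were not tested as a set.

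Levels among members spanned a wide range, from 1.24 CPM per kb for Hist2h2be to 1030 CPM per kb for Hist1h4d, with a median of 247 over the 52. The 13 most abundant genes held 49.85% of the family's counts, led by Hist1h3c, Hist1h3f (4.61%), Hist1h4d (4.60%), Hist1h3b (4.51%) and Hist2h2bb (4.49%). The order of members was alike in all libraries, with Spearman rank correlations of 0.919 to 0.983 over the 66 pairs of libraries (median 0.960). Across the 52 tested members, fold change and level per kb had a rank correlation of 0.60. Fold change and deposited length had one of -0.11. These coefficients are descriptions across genes that share all 12 libraries. Low counts make fold changes less precise, and members low per kb differed in count and in model length. Hist2h2be, Hist1h2ba and Hist2h2ab reached at most 53, 65 and 129 counts. Hist4h4 reached 2153 counts over 2879 bases and Hist1h2be 2092 counts over 2510 bases, 8.33% of which overlap Hist1h1e. The cause of the relation with level was not tested.

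**Figure D3:**
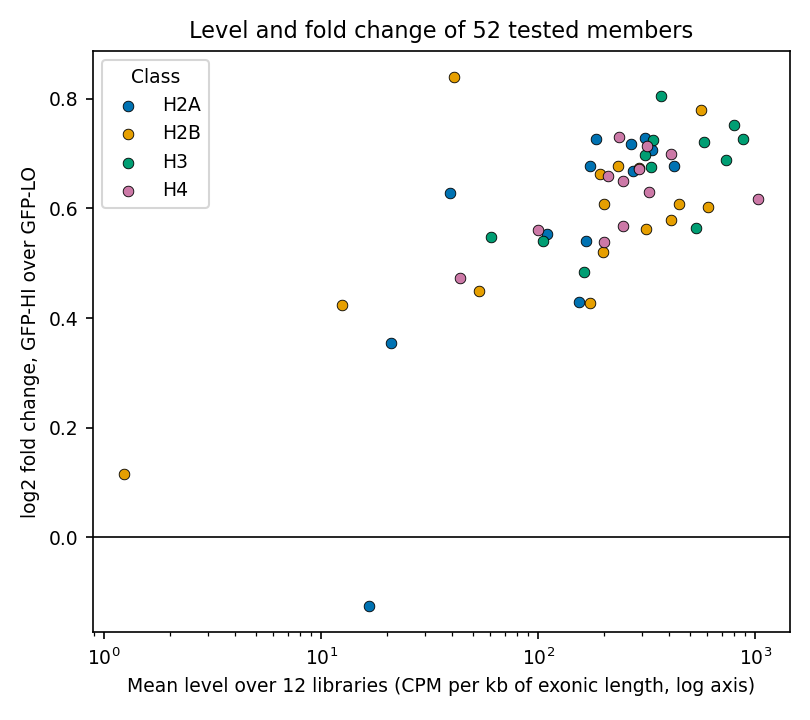
Log2 fold change (vertical axis) against the mean level over the 12 libraries (horizontal log axis, CPM per kb of exonic length) for the 52 tested members, coloured by class. Members above 200 CPM per kb lie between 0.54 and 0.78 apart from Hist1h3a at 0.81, and the members nearest 0 (Hist2h2be and Hist2h2ab) are at 1.24 and 16.6 CPM per kb.

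Of the 61 members found in GENCODE, 28 had a deposited model of exactly the coding length, which leaves out the stem-loop end. Some cluster genes also have annotated longer transcripts that extend past the stem-loop. The 13 members with deposited models of 1000 bases or more differed by 0.57 ± 0.12 as a sum, and the 49 shorter ones by 0.67 ± 0.14 (log2, SD, n = 6). The shorter minus longer gap was 0.10 ± 0.08 and was positive in 5 of 6 mice. Longer models included Hist3h2a (0.35), Hist1h2be (0.45), Hist4h4 (0.47), Hist1h2ac (0.63) and Hist1h3f (0.68), so single genes varied within that group. Of the Hist1h2be model, 8.33% overlaps the linker gene Hist1h1e on the same strand.

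Most members of a class are nearly identical to one another in their coding sequence, which bears on single values. The median identity of a gene to same-length members of its class was 97.7% in H2A, 97.5% in H2B, 97.3% in H3 and 94.4% in H4. The median share of a coding sequence's 50-base windows found in no other member was 16.7%, 20.2%, 15.3% and 29.7%, respectively. Single genes departed from these medians. Hist2h2ab, Hist4h4 and Hist2h2be had median identities of 83.46%, 86.54% and 87.14%, and 75.87%, 100% and 100% of their windows were unique. In Hist1h2ag, Hist1h2ad, Hist2h3c1 and Hist2h3c2, 0% were unique. How reads that match several genes were counted is not given in the sources used here, so counts of single members are uncertain. Class sums are less so only if such reads were divided among members of a class. Reads left out or counted more than once would change the sums too. The rank correlation of fold change with the share of unique windows was -0.17 over the 52 tested members.

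The other 10 of the 62 members were not tested. Hist1h2bq, Hist1h2br, Hist1h2ap and Hist2h2aa1 had 0 counts in every library, and Hist2h2aa2 reached 2, Hist1h4m 5, Hist1h2aa 7, Hist1h2ao 9, Hist3h2ba 15 and Hist3h2bb-ps 18 counts at most. Several of these have models that overlap another gene on the same strand. The models of Hist1h2bq and Hist1h2br are the same bases, Hist1h2ap lies wholly inside Hist1h2ao, and Hist2h2aa1 lies wholly inside Hist2h2aa2. Hist1h4m shares 77.0% of its bases with Hist1h4n, which was called at 0.71 ± 0.07 (log2, SE) with up to 3638 counts. For these overlapping genes, values near 0 therefore do not show whether they were expressed. Hist3h2ba, Hist3h2bb-ps and Hist1h2aa overlap no other gene model, and 100% and 97.65% of the coding 50-base windows of Hist3h2ba and Hist1h2aa were unique among members.

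Genes that supply and process histone mRNA, and the chaperones that carry histones, made a list of 37, all tested. Of them 0 were called by edgeR or DESeq2, 5 (13.5%) were higher and 0 lower at an unadjusted p under 0.05, and 25 (67.6%) had positive log2 fold changes. Over all tested genes, 4.3% were higher and 2.94% lower at that unadjusted p, and 46.9% were positive. The median log2 fold change of the list was 0.08, beside -0.02 for all tested genes. Slbp, which binds the stem-loop, stood at 37, 26.5, 42.4, 59.7, 42.3 and 49.6 CPM among the GFP-HI libraries, against 57.6, 34.6, 30.9, 45, 41.7 and 40.7 CPM among the GFP-LO libraries, with a log2 fold change of 0.03 ± 0.16 (SE). Npat, the coactivator of histone gene transcription, was at 0.05 ± 0.12 (SE). Neither differed beyond its error.

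The supply genes with the smallest p were Pou2f1, Asf1b and Nasp. Pou2f1 encodes OCT1, which binds the octamer motif, and stood at 51.3, 51.3, 38.7, 42.1, 61.3 and 51.3 CPM among the GFP-HI libraries, against 34.1, 34.4, 33.6, 42.1, 40.2 and 42.6 CPM among the GFP-LO libraries. It was higher in GFP-HI in 6 of 6 mice, narrowly in B5M, at 0.38 ± 0.12 (log2, SE) with an edgeR adjusted p of 0.429. Asf1b, an H3 and H4 chaperone, was at 0.70 ± 0.30 (adjusted p 0.655, edgeR), and the H3 chaperone Nasp at 0.23 ± 0.10 (adjusted p 0.665, edgeR). Asf1b stood at 17.1, 11.3, 6.34, 10.1, 7.88 and 10.9 CPM among the GFP-HI libraries, against 4.76, 5.66, 7.5, 7.38, 4.92 and 7.94 CPM among the GFP-LO libraries, and B4M was the mouse with the opposite direction.

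A list of 38 S phase genes, mostly of DNA replication, included Slbp and Mcm2 of the supply list. Of the 38, 0 were called by edgeR and 2, Rrm1 and Mcm6, by DESeq2. At an unadjusted p under 0.05 (edgeR), 9 (23.7%) were higher and 0 lower, beside the 4.3% and 2.94% of all tested genes. Of the 38, 33 (86.8%) had positive log2 fold changes, beside 46.9% of all tested genes, with a median of 0.29. Their summed level was 954, 846, 728, 852, 664 and 791 CPM among the GFP-HI libraries, against 790, 703, 562, 714, 493 and 677 CPM among the GFP-LO libraries. The sum was higher in GFP-HI in all 6 mice, by 0.30 ± 0.08 (log2, SD, n = 6), beside the 0.65 of the core histones. Rrm1, a subunit of ribonucleotide reductase, stood at 156, 118, 117, 142, 104 and 134 CPM among the GFP-HI libraries, against 132, 95.4, 93.1, 111, 72.4 and 103 CPM among the GFP-LO libraries. It was higher in 6 of 6 mice, at 0.36 ± 0.08 (SE) with an edgeR adjusted p of 0.0733. Mcm6, of the replicative helicase, was at 0.59 ± 0.16 (adjusted p 0.242, edgeR), and Pole, a DNA polymerase epsilon subunit, at 0.48 ± 0.17 (adjusted p 0.546, edgeR), each higher in 5 of 6 mice. The part of S phase cells in the histone difference was not tested.

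**Figure D4:**
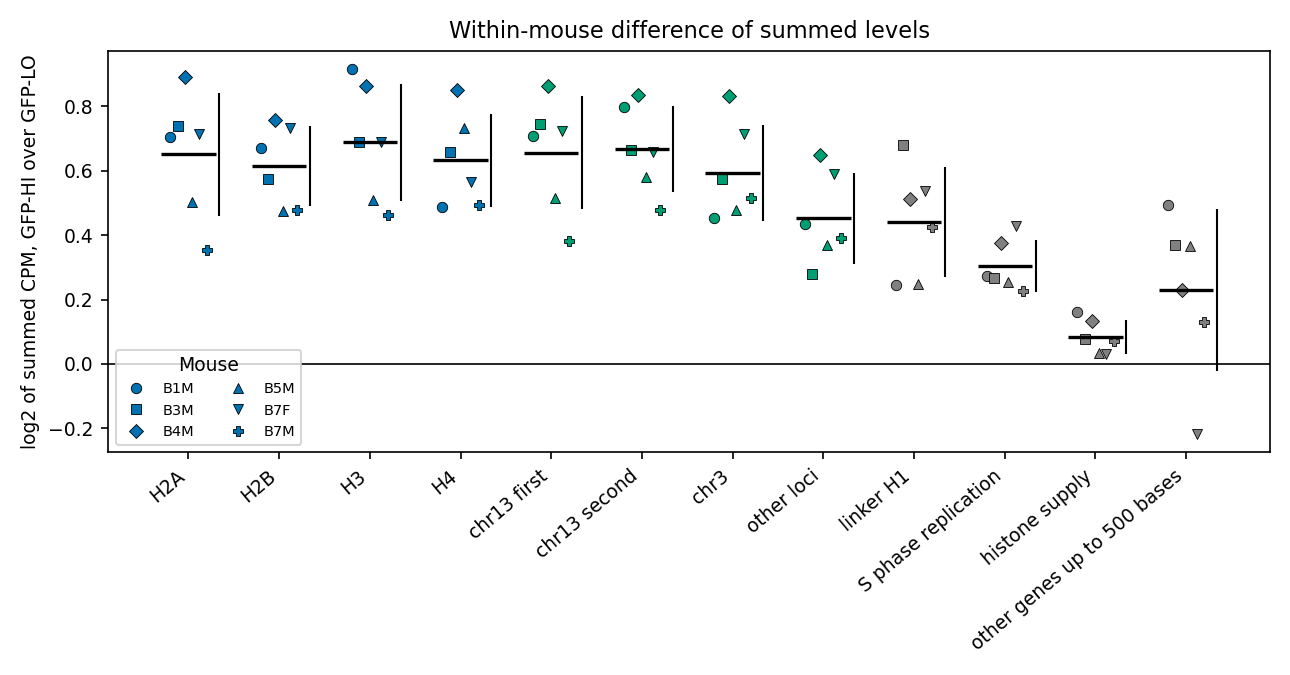
Log2 ratio of summed CPM (GFP-HI over GFP-LO, vertical axis) in each of 6 mice for the core histone classes and sub-clusters, with linker H1, S phase, histone supply and other short genes beside them. Horizontal bars are means and the vertical line beside each is 1 SD on either side. Core histone classes average 0.61 to 0.69, S phase genes 0.30 and histone supply genes 0.08.

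Related and comparison genes were measured in the same libraries. The 6 linker H1 genes summed to a difference of 0.44 ± 0.17 (log2, SD, n = 6). Of the 5 tested, 2, Hist1h1a (0.70) and Hist1h1d (0.38), were called higher, beside 0.469% of all tested genes. Other short genes were also given, because core histone genes are short. Outside the histone families, the 207 genes of 500 bases or fewer had a median log2 fold change of 0.13 and a summed difference of 0.23 ± 0.25 (SD, n = 6), positive in 5 mice and -0.22 in B7F. The 5757 such genes no longer than 2879 bases, the longest tested member, had a median of -0.02. The part of transcript length in the histone difference was not tested.

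Markers of other cell types were measured as lists. Of 6 fibroblast markers, 1 was called: Dcn, which encodes decorin, lower in GFP-HI at -0.49 with an edgeR adjusted p of 0.00312. The fibroblast list summed to 252.5 to 467.6 CPM over the GFP-HI libraries and 354.9 to 615.1 CPM over the GFP-LO libraries, nearly all of it Dcn, with Col1a1 and Col1a2 at or below 5.39 CPM and Pdgfra at or below 0.42 CPM. The other 5 fibroblast markers had higher means in GFP-HI, among them Col1a1 (2.88 against 0.875 CPM) and Col1a2 (2.60 against 0.850 CPM), and of these Col1a1 and Col1a2 were tested and not called (edgeR adjusted p 0.687 and 0.818). The 5 endothelial markers summed to at most 4.9 CPM over the GFP-HI libraries and 2.58 CPM over the GFP-LO libraries, with Emcn at 0 in all libraries. Leukocyte and Langerhans markers summed to 0.245 to 16.1 CPM and 0.251 to 24.4 CPM in GFP-HI and GFP-LO, melanocyte markers to 1.71 to 5.99 and 3.43 to 6.4 CPM, and Merkel markers to 42.05 to 70.7 and 45.4 to 69.6 CPM. Most of the Merkel sum was Sox2, at 29.97 to 57.9 CPM, and Isl1, at 4.29 to 21.3 CPM, and Atoh1 and Krt20 were at or below 0.92 CPM. Suprabasal keratinocyte markers were more abundant, led by Krt76 at 657 to 2062 CPM and Krt13 at 134 to 1280 CPM. They summed to 1216 to 3680 CPM over the GFP-HI libraries and 1293 to 2572 CPM over the GFP-LO libraries, and 0 of the 7 tested were called by edgeR or DESeq2, with 1 higher at an unadjusted p under 0.05. The part of these cell types in the histone difference was not tested.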

How the data were processed

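The authors deposited 1 table of raw read counts per gene for 12 libraries, with exon intervals, strand and exonic length per the file headers. Tools listed in the submitters' processing notes were featureCounts, FastQC, R 3.4.1, DESeq2 and bcl2fastq 2.20.0, on GRCm38, also called mm10. Not given in the sources used here are the aligner, the release of the annotation, whether strand was used, and how reads matching several genes were counted, and this bears on single members because they are nearly identical. All 12 count columns matched a library by name.

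The counts went into edgeR 4.0.16 under R 4.3.3, with filtering by group (minimum count 10, minimum total 15), TMM scaling and a robust, two-sided quasi-likelihood test with mouse as a block, adjusted by Benjamini-Hochberg over 11719 genes, threshold 0.05. DESeq2 1.42.0 was the alternative test. The SE of a gene is its absolute edgeR log2 fold change divided by the square root of the quasi-likelihood F statistic. Levels are TMM-normalised CPM, class and sub-cluster sums add members per library, and their log2 differences were taken within mice with no test. Levels per kb divide by deposited exonic length. The series text calls the libraries matched and titles share mouse codes. As a check, deviations from the group means correlated at 0.225 to 0.494 within mice, and each mouse's own value exceeded that with any other mouse (at most 0.257). p-values cover the spread of the within-mouse difference over these 6 mice, not that of levels between mice. No batch is named in the labels, and the age of B7F cannot be told apart from that mouse.

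Members, lists and comparisons were chosen with earlier results of these data known. Named members were the most abundant per kb in each class and sub-cluster, the 3 largest and 3 smallest fold changes among members with at least 5 CPM, every tested member without a call, and every untested member. From the supply and S phase lists, called genes and up to 3 with the smallest p were named. Slbp, Npat, Hist1h2ak, Hist1h2bn, Hist2h4 and the genes given as examples of abundance or model length were added after their values were seen. Alternatives changed scaling, filter, test and block and left out each mouse, and leaving out B1M and B3M together was added after seeing the data.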

Additional observations from a re-analysis of the deposited data

Results flagged for a closer look

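Among 106 groups of 6 libraries checked (each of the 52 tested members and the family sum in each fraction), 2 had a library far from the others, and chance would mark about 1 group in 20. Both were the GFP-HI library of B3M and both genes lie on chromosome 3. Hist2h2ac stood at 135.4 CPM there and at 69.71 CPM in the next library, and Hist2h4 at 225 CPM there and at 107.2 CPM in the next. The GFP-LO library of B3M was also the highest of its fraction for both, at 100.5 CPM for Hist2h2ac and 142.1 CPM for Hist2h4.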

How the results depend on the processing

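The within-mouse log2 differences of the family, the 4 classes and the 4 groups of loci kept their direction and stayed within 1 SD of the reported value under every scaling and every left-out mouse run. The number of members called higher, 40 in the reported fit, was 0 with no replicate block, where 11 members had an unadjusted p under 0.05 and the median log2 fold change was 0.66, so every call rested on pairing by mouse. Leaving out 1 mouse gave 21 (without B3M) to 45 (without B1M) calls, with 23 without B4M, and fewer mice entered each fit. Without both B1M and B3M, 45 were called. S phase genes called, 0 in the reported fit, were 2 by DESeq2, 1 with no low-count filter, 0 to 1 with a mouse left out (1 without B1M) and 1 without both B1M and B3M. Hist2h2ab, at -0.13, ranged from -0.35 without B7F to 0.18 without B1M, was 0.08 without B7M and 0.11 without both B1M and B3M, and never passed the threshold. The cause of these changes was not tested. Hist2h2be, at 0.12, was -0.04 without B7F and -0.02 without B7M, and Slbp, at 0.03, was -0.06 without B4M, -0.05 without B5M and -0.02 without B7M. No other tested member, and none of Npat, Pou2f1, Asf1b, Nasp, Rrm1, Mcm6 and Pole, changed direction under these settings. Over all tested genes, the 55 calls higher and 7 lower were 0 and 0 with no replicate block, 120 and 23 by DESeq2, 127 and 45 with no low-count filter, 29 and 4 without B3M, 30 and 2 without B4M, and 117 and 34 without both B1M and B3M. Counts under 20 limited 6 untested members.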
